A study of Mus musculus with 8 samples.

Results

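Insulin receptor signalling and the FoxO transcription factors were examined through 10 genes in the exorbital lacrimal gland (LG), the tear-secreting gland beside the eye, of female C57BL/6J mice. The genes were listed by name as members of the pathway, with earlier results of these data known, and are the receptor Insr, the adaptors Irs1 and Irs2, the PI3-kinase subunit Pik3r1 and its inhibitor Pik3ip1, the transcription factors Foxo1, Foxo3 and Foxo4, and the sestrins Sesn1 and Sesn3. All 10 are among the 24557 genes of the count table, and 9 had enough counts to be tested between diets. The mice were fed ad libitum (AL, 4 libraries) or received 40% calorie restriction (CR, 4 libraries) for 4 months, starting at 6 to 7 months and ending at 10 to 11 months of age. No genetic change or drug was described for either group. The paper, after describing its second cohort, states that restricted mice were fed daily just before the dark phase. The study used 2 cohorts with different chows. In the second cohort, CR mice ate the AL chow with 40% more vitamins and micronutrients, so amount and feed differed together there. Neither the cohort behind these libraries nor the time from the last meal to tissue collection is given in the sources used here.

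Insulin binds the insulin receptor, which phosphorylates the IRS adaptors, and these recruit PI3-kinase through its p85 regulatory subunits. The lipid made by PI3-kinase activates the kinase AKT, which phosphorylates FoxO proteins and keeps them out of the nucleus. When insulin is low, as in fasting, FoxO proteins enter the nucleus and switch on genes of catabolism, stress defence and growth arrest, among them Insr, Irs2 and the sestrins in several tissues. Sestrins restrain mTORC1, the growth-promoting kinase complex that lies downstream of AKT. Much of this control acts on phosphorylation and location of proteins, which RNA counts do not measure.

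Promoter sequences of the adaptors and of Sesn1 are shown because they hold the only matches to 3 short motifs among the promoters found for these genes. RefSeq windows on GRCm38.p6, from 250 bases before to 50 bases after a transcript start, were matched for 8 of the 10 genes, in 10 windows, and not for Insr and Foxo4. Both strands were searched for GTAAACA, the core bound by FoxO proteins, CAAAACA, the core of the insulin response element, and CACGTG, the E-box bound by clock and other basic helix-loop-helix factors. The letters are shown 5′ to 3′ on the gene's strand, with the matches in capitals, where TGTTTTG and TGTTTAC are the 2 cores read on the other strand. Irs1 and Irs2 are shown from 250 bases before the start up to it, at chr1:82291440-82291689 and chr8:11008930-11009179 on the minus strand, and Sesn1 at chr10:41810324-41810603 on the plus strand, which includes 30 bases after the start.
Irs1: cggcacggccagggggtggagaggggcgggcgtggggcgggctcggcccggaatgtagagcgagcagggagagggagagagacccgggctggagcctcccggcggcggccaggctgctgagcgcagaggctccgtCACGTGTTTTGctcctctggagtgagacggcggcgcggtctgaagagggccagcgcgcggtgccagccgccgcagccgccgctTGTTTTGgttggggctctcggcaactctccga
Irs2: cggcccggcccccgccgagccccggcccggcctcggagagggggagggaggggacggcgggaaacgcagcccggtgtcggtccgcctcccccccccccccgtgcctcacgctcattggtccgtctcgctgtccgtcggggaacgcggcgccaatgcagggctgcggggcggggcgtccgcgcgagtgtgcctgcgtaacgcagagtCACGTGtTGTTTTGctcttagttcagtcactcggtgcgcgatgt
Sesn1: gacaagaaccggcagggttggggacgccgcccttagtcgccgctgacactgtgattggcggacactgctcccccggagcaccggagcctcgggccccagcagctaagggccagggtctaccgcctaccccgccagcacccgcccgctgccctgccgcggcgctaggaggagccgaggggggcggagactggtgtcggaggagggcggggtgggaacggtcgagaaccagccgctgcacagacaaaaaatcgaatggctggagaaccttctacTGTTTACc

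In the Irs1 promoter the E-box began 115 bases before the start and overlapped an insulin response core that began 111 bases before it, and a second core lay 32 bases before the start. In the Irs2 promoter an E-box began 44 bases and an insulin response core 37 bases before the start. The first Sesn1 promoter held a FoxO core 23 bases after the start. Among all 32851 windows of the same length, 3.65% held GTAAACA, 6.28% held CAAAACA and 7.15% held CACGTG. An E-box and an insulin response core that began at most 10 bases apart were found in 9 windows, 0.0274% of all, of 8 genes, which include Irs1, Irs2 and Irs4, an adaptor gene of the same family. This pair was looked for after the letters had been read, and a match is a description of the sequence and not a binding site.

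The libraries held between 12051881 and 22156511 counts, and the 10 most counted genes of a library took between 62.4 and 73.4% of them. Levels are CPM, the share of a library's counts on a common scale, after scaling by relative log expression (RLE) factors, and 3 counts, taken as the floor, equal 0.152 to 0.231 CPM. The floor covers counting error only, since reads without molecular identifiers are not separate molecules. Transcripts abundant in another gland differed between the diets. Transcripts of 8 genes abundant in the parotid gland, a salivary gland near the exorbital LG, summed to 12092 to 44842 CPM in AL. In CR they summed to 59154 to 350647 CPM. Car6, a gene of this list, made up much of the AL sums, at 11777 to 28476 CPM in AL and 36509 to 82725 CPM in CR. Whether Car6 marks another gland here was not tested. Bpifa2, also of this list, was at 190 to 17725 CPM in AL and 13685 to 167792 CPM in CR, with overlap. The 17 genes of LG secretion summed to 429884 to 580018 CPM in AL and to 191868 to 501208 CPM in CR. In bulk tissue, fewer cells of a type and less RNA per cell cannot be told apart.

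In the edgeR test used here, none of the 9 tested genes passed the study's thresholds between CR and AL. The receptor, the PI3-kinase genes, Foxo1 and the sestrins still stood among the genes with smaller p-values. Between 3.79 and 13.05% of all genes tested had a smaller p than each of them. Calls required a fold change of 1.5 or more together with an adjusted p below 0.05 (edgeR quasi-likelihood test, Benjamini-Hochberg over 11211 genes). By this rule 0 of 9 genes were called, against 1.98% of all genes tested, 1.2% higher and 0.785% lower in CR. At an unadjusted p under 0.05 the same test counted 6 of 9 genes, 5 with a higher fitted level in CR (Insr, Pik3r1, Pik3ip1, Foxo1 and Sesn1) and 1 with a lower level (Sesn3), against 16.7% of all genes tested in either direction, 8.62% higher and 8.1% lower. Since the genes were listed with earlier results known, this share is a description and no test of the pathway. The CR libraries all lay above the AL libraries for 3 of the 9 (Insr, Pik3r1 and Sesn1) and below them for 0, against 4.58% and 5.2% of all genes tested, 9.79% in either direction. The median log2 fold change of the 9 genes was 0.49, and that of all genes tested was 0.01. DESeq2, the tool behind the study's own calls, called 2 of the 9, Pik3ip1 and Sesn1, against 6.26% of all genes tested. Over all genes tested DESeq2 called 702 and edgeR 222. On simulated data edgeR called 15 of 83 genes changed by a log2 fold of 1, so a gene not called may still differ. With limma voom 0 of the 9 were called, against 3.54%. It counted 6 of the 9 at an unadjusted p under 0.05, against 2273 of 11211 genes. Without CR replicate 4, edgeR called 3 of the 9, Foxo1, Pik3ip1 and Sesn1, against 6.14% of the genes tested in that fit. The labels say no more than that the samples are separate, and the paper compares 4 CR mice with 4 AL mice. The p-values weigh the difference between diets against the spread between these samples. The paper states that mice shared pens, and the pen of each sample is not given in the sources used here.

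**Figure D1:**
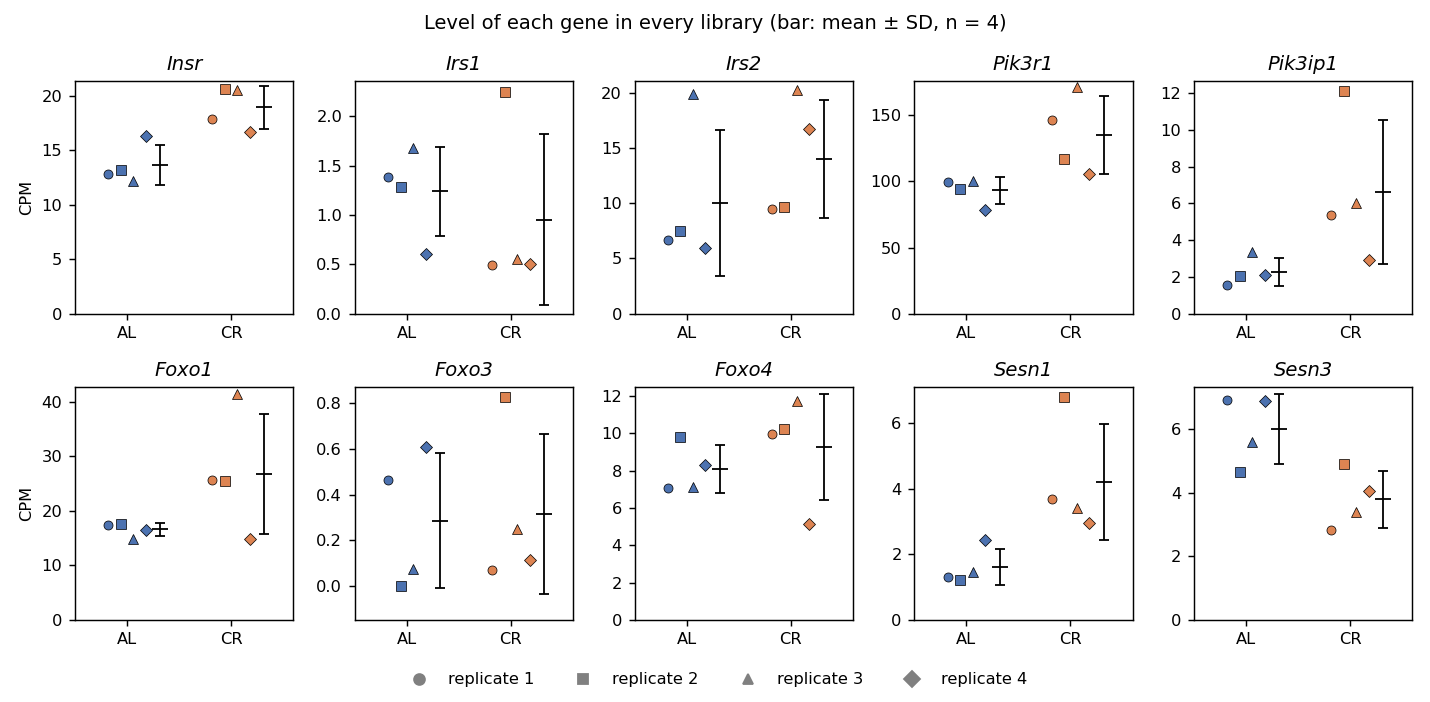
Level of each of the 10 genes in every library, in CPM on a linear axis that differs between panels, with AL in blue, CR in orange, a marker shape per replicate number and the mean ± SD of 4 libraries in black. CR lies wholly above AL for Insr, Pik3r1 and Sesn1, and CR replicate 4 (diamond) is the lowest CR library for Pik3ip1, Foxo1, Foxo4, Sesn1, Insr and Pik3r1.

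Insr encodes the insulin receptor (Gene ID 16337, chr8:3122061-3279617 on GRCm38, minus strand, a span of 157.6 kb). AL libraries, given throughout in the order of replicates 1 to 4, held 12.9, 13.2, 12.2 and 16.3 CPM of Insr, and CR libraries held 17.9, 20.6, 20.5 and 16.7 CPM. Every CR library was above every AL library, with CR replicate 4 and AL replicate 4 next to each other. Mean levels were 13.6 ± 1.84 CPM in AL and 18.9 ± 1.97 CPM in CR (SD, n = 4 each), and the fitted fold change was 1.39 (95% confidence interval 1.07 to 1.80, log2 0.47 with SE 0.17). The test gave an unadjusted p of 0.019 and an adjusted p of 0.188 (edgeR, Benjamini-Hochberg), so the difference did not pass. Igf1r, the related receptor for insulin-like growth factors, ranged from 40.8 to 70.1 CPM in AL and from 67.3 to 115 CPM in CR, and the groups overlapped (log2 fold change 0.73, SE 0.22, edgeR adjusted p 0.116).

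Irs1 encodes the adaptor best known for its part in muscle and fat (Gene ID 16367, chr1:82233101-82291416, minus strand). It was counted at 1.39, 1.29, 1.67 and 0.608 CPM in AL and at 0.495, 2.25, 0.557 and 0.499 CPM in CR. CR replicates 1, 3 and 4 were below every AL library, and CR replicate 2 was above every one. The fitted log2 fold change was -0.37 (SE 0.61, 95% confidence interval -1.70 to 0.97, edgeR adjusted p 0.838). CR replicate 2 decided its size, since leaving it out gave -1.23, with an edgeR adjusted p of 0.407. The counts of Irs1 are uncertain for another reason. Of 526 windows of 75 bases in the last 600 bases of its transcript, 515 (97.9%) also lie in Gm9747, annotated on the other strand and not in the count table, and the strand setting of the counting is not given in the sources used here.

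Irs2 encodes the main adaptor of the liver, a textbook FoxO target that is raised by fasting there (Gene ID 384783, chr8:10984681-11008458, minus strand). Its levels were 6.70, 7.47, 19.9 and 5.98 CPM in AL and 9.47, 9.70, 20.2 and 16.7 CPM in CR. The other 3 AL libraries were below every CR library, but AL replicate 3 was above all CR libraries except replicate 3. Group means were 10.0 ± 6.61 and 14 ± 5.32 CPM (SD, n = 4 each), with a fitted log2 fold change of 0.49 (SE 0.39, 95% confidence interval -0.36 to 1.34, edgeR adjusted p 0.592). AL replicate 3 decided the size of this value, since without it the log2 fold change was 1.06 with an edgeR adjusted p of 0.139. Macrophage markers, 12 genes, summed to 667 CPM in AL replicate 3 and to 118 to 294 CPM in the other 7 libraries, and their part in the result was not tested.

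Pik3r1 encodes p85α, the regulatory subunit through which PI3-kinase docks on IRS adaptors (Gene ID 18708, chr13:101680563-101768217, minus strand). It was counted at 99.9, 94.2, 101 and 78.3 CPM in AL and at 147, 117, 171 and 106 CPM in CR. The groups did not overlap, and CR replicate 4 stood closest to AL. Mean levels were 93.2 ± 10.4 and 135 ± 29.6 CPM (SD, n = 4 each), a fitted fold change of 1.45 (95% confidence interval 1.09 to 1.94, log2 0.54 with SE 0.19). With an unadjusted p of 0.0161, edgeR's adjusted p was 0.175.

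Pik3ip1 encodes a membrane protein that binds the catalytic subunit of PI3-kinase and inhibits it (Gene ID 216505, chr11:3330401-3342971, plus strand). It had the largest fitted difference of the 9 genes and the smallest p. AL libraries were at 1.54, 2.02, 3.35 and 2.13 CPM, and CR libraries at 5.37, 12.1, 6.00 and 2.94 CPM. CR replicates 1 to 3 were above every AL library, whereas CR replicate 4 lay below AL replicate 3. Means of 2.26 ± 0.770 and 6.61 ± 3.91 CPM (SD, n = 4 each) gave a fitted fold change of 2.92 (95% confidence interval 1.55 to 5.52, log2 1.55 with SE 0.42), an unadjusted p of 0.00317 and an edgeR adjusted p of 0.0834. The adjusted p was 0.0116 by DESeq2, 0.0412 by edgeR with no filter on low counts and 0.014 by edgeR without CR replicate 4, and it ranged from 0.014 to 0.269 over the fits that left out 1 library.

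**Figure D2:**
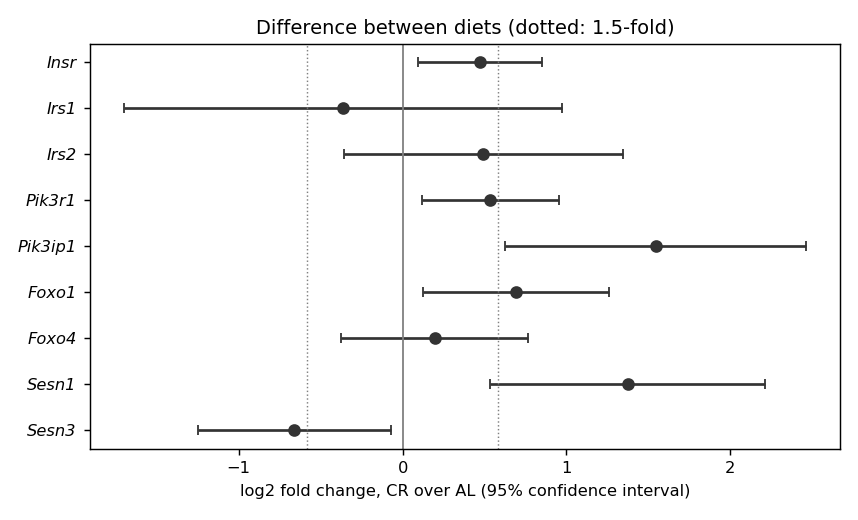
Fitted log2 fold change of CR over AL for the 9 tested genes, as points with 95% confidence intervals from edgeR's fit, with the solid line at no difference and dotted lines at the 1.5-fold threshold in either direction. The intervals of Insr, Pik3r1, Pik3ip1, Foxo1 and Sesn1 lie above 0 and that of Sesn3 below 0, and none of the 9 passed after adjustment over 11211 genes.

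Foxo1 encodes the FoxO factor that drives gluconeogenic genes in the liver (Gene ID 56458, chr3:52268336-52353221, plus strand). Its AL levels were close to each other, at 17.3, 17.6, 14.9 and 16.6 CPM, and its CR levels were spread, at 25.6, 25.5, 41.4 and 14.8 CPM. CR replicates 1 to 3 were above all AL libraries, and CR replicate 4 was the lowest of all 8. The SD was 1.25 CPM around a mean of 16.6 in AL and 11.0 CPM around a mean of 26.8 in CR (n = 4 each). The fitted fold change was 1.61 (95% confidence interval 1.09 to 2.39, log2 0.69 with SE 0.26, unadjusted p 0.0209, edgeR adjusted p 0.196). Leaving out CR replicate 4 gave 0.89 on the log2 scale and an edgeR adjusted p of 0.0244, and leaving out CR replicate 3 gave 0.41 and 0.48. White adipose markers, 14 genes, summed to 96.3, 98.8, 144 and 39.4 CPM in CR replicates 1 to 4 and to 21.3 to 28.9 CPM in AL, and 7 of the 10 that were tested were higher in CR at an unadjusted p under 0.05. Of the defining fat genes, Adipoq ranged from 1.52 to 4.47 CPM in AL and from 2.83 to 18.7 CPM in CR. Lep was at or under the floor in all 8 libraries. The paper reports higher Adipoq in CR by qRT-PCR of further LG samples, and more adiponectin protein by western blot. Foxo1 is also a gene of fat cells, and the part of the adipose transcripts in its levels was not tested.

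Foxo3 encodes the FoxO factor linked with stress resistance and long life (Gene ID 56484, chr10:42181841-42276755, minus strand). It was scarcely counted, with 40 counts in all 8 libraries, 19 in AL and 21 in CR. The levels were 0.462, 0, 0.0728 and 0.608 CPM in AL and 0.0707, 0.828, 0.247 and 0.111 CPM in CR, so libraries above the floor and below it occurred in both groups. The difference of mean log2(CPM + 1) was 0.03 (CR minus AL, two-sided exact permutation p = 0.943, where 0.0286 is the smallest p that 4 against 4 allow). A difference in Foxo3 was not detectable at this depth.

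Foxo4 encodes the X-linked member of the family (Gene ID 54601, chrX:101254528-101260873, plus strand). Libraries were at 7.08, 9.80, 7.13 and 8.31 CPM in AL and at 9.96, 10.2, 11.8 and 5.16 CPM in CR. CR replicates 1 to 3 were above the AL libraries and CR replicate 4 was below them. The fitted log2 fold change was 0.20 (SE 0.26, 95% confidence interval -0.38 to 0.77, edgeR adjusted p 0.788). Its interval includes changes of 1.5-fold upwards, so it leaves a moderate difference undecided. Foxo6, the remaining mouse FoxO gene, had a log2 fold change of -0.46 (SE 0.48, edgeR adjusted p 0.704).

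Sesn1 encodes a sestrin, a leucine-regulated inhibitor of mTORC1 that p53 and FoxO factors induce (Gene ID 140742, chr10:41809935-41908424, plus strand). It was counted at 1.31, 1.23, 1.46 and 2.43 CPM in AL and at 3.67, 6.80, 3.4 and 2.94 CPM in CR. All CR libraries were above all AL libraries, with CR replicate 2 the highest. CR replicate 4, with 53 counts, and AL replicate 4, with 48 counts, were next to each other. The means were 1.61 ± 0.560 and 4.20 ± 1.76 CPM (SD, n = 4 each), the fitted fold change was 2.59 (95% confidence interval 1.45 to 4.64, log2 1.37 with SE 0.39), and the unadjusted p of 0.00382 became 0.0917 after adjustment (edgeR, Benjamini-Hochberg). DESeq2's adjusted p was 0.0203. The promoter shown above with a FoxO core is 1 of its 2 RefSeq windows.

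Sesn3 encodes the sestrin that FoxO factors induce in muscle and other cells (Gene ID 75747, chr9:14275067-14333101, plus strand). Its direction was opposite to that of Sesn1. AL libraries were at 6.93, 4.66, 5.61 and 6.89 CPM, and CR libraries at 2.83, 4.91, 3.4 and 4.05 CPM. CR replicates 1, 3 and 4 lay below every AL library, and CR replicate 2 lay just above AL replicate 2. Means of 6.02 ± 1.10 and 3.80 ± 0.894 CPM (SD, n = 4 each) gave a fitted log2 fold change of -0.66 (SE 0.27, 95% confidence interval -1.25 to -0.07), with an unadjusted p of 0.0307 and an edgeR adjusted p of 0.235. Sesn2, the remaining sestrin, was too rare for the fit, at 0.437 to 1.46 CPM in AL and 0.118 to 0.565 CPM in CR.

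Ratios of paired genes within a library do not depend on how libraries are scaled, and the balance of the sestrins differed most between the diets. The log2 ratio of Sesn3 to Sesn1 counts was 2.37, 1.90, 1.92 and 1.49 in AL and -0.37, -0.47, 0.00 and 0.46 in CR. Sesn3 had more counts than Sesn1 in every AL library, and in CR the ratio lay around equality, with no overlap. The mean was 1.92 ± 0.359 in AL and -0.10 ± 0.421 in CR (SD, n = 4 each), a difference of -2.02 (two-sided exact permutation p = 0.0286, and no smaller p is possible here). After Benjamini-Hochberg adjustment over the 5 ratios computed, p was 0.0714, so even without overlap this ratio did not pass 0.05. Passing would have needed more of the 5 ratios at 0.0286, whatever the size of this difference. The adjusted p therefore does not weigh that size, and the same limit holds for the other ratios. With any 1 library left out the difference lay between -2.20 and -1.87.

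The log2 ratio of Foxo4 to Foxo1 was -1.29, -0.85, -1.05 and -0.99 in AL and -1.36, -1.31, -1.81 and -1.51 in CR. These groups did not overlap either, with AL replicate 1 and CR replicate 2 next to each other (difference -0.45, exact permutation p = 0.0286, adjusted 0.0714). CR replicate 4, which had the lowest Foxo1 and Foxo4 levels of CR, lay within the range of the other CR libraries in this ratio. For Pik3ip1 over Pik3r1 the mean difference was 0.89 (exact permutation p = 0.0571, adjusted 0.0952), with overlap. Irs2 over Irs1 differed by 1.20 (exact permutation p = 0.171, adjusted 0.214), with CR replicate 2 the lowest of all 8 libraries and the other CR libraries above all AL ones. Leaving out CR replicate 2 gave 1.87 for this ratio (exact permutation p = 0.0286, adjusted 0.0714). Foxo3 over Foxo1 differed by -0.17 (exact permutation p = 0.886, adjusted 0.886) and rests on very few Foxo3 counts.

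**Figure D3:**
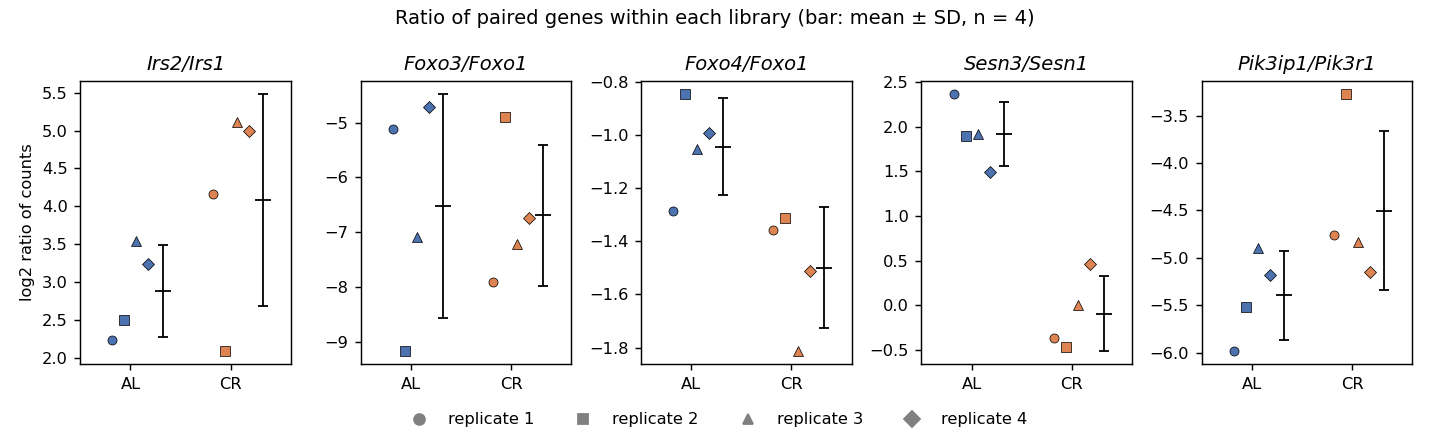
The 5 log2 ratios of counts within each library, AL in blue and CR in orange, with a marker shape per replicate number and the mean ± SD of 4 libraries in black, on an axis that differs between panels. Sesn3/Sesn1 lies between 1.49 and 2.37 in AL and between -0.47 and 0.46 in CR, and Foxo4/Foxo1 also separates the groups.

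The other genes of the pathway were taken from 6 lists of 131 genes, of which 130 were in the table and 116 were tested. The lists were chosen with earlier results of these data known, so shares within them are descriptions. Of the 116 tested, 4 were called higher and 3 lower in CR, 7 of 116, against 1.98% of all genes tested. At an unadjusted p under 0.05 there were 18 higher and 11 lower, 29 of 116, against 8.62% and 8.1% of all genes tested, and the median log2 fold change was 0.08. The 7 genes called by edgeR belong to the sestrin and mTORC1 list and to the FoxO target genes, and no difference between the lists was tested. With the parotid score as a covariate, edgeR called 0 of the 116 and counted 14 at an unadjusted p under 0.05. No gene was called among 11 receptors and adaptors, 12 genes of PI3-kinase and lipid phosphatases, 17 of AKT and its direct outputs and 16 FoxO relatives and regulators, by edgeR, which counted 1, 2, 3 and 5 of them at an unadjusted p under 0.05, against 16.7% of all genes tested. DESeq2 did call genes there, the receptor gene Igf1r and the PI3-kinase gene Pik3cd, as edgeR did with no filter on low counts for Inpp4b, a lipid phosphatase gene.

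In the sestrin and mTORC1 list of 26 tested genes, edgeR called 1 lower, Ddit4, and 1 higher, Eif4ebp1, against 0.785% and 1.2% of all genes tested. Ddit4 encodes REDD1, a stress-induced inhibitor of mTORC1, and fell from 37.3, 40.4, 32.7 and 33.8 CPM in AL to 9.82, 11.2, 14.2 and 18.4 CPM in CR (log2 fold change -1.43, SE 0.21, edgeR adjusted p 0.00697). Eif4ebp1 encodes 4E-BP1, the repressor of translation that mTORC1 switches off and a FoxO target in flies, and rose from 51.6, 61.1, 54.0 and 73.0 CPM to 85.5, 151, 143 and 107 CPM (log2 fold change 1.02, SE 0.21, edgeR adjusted p 0.0335). The groups did not overlap for either gene. With 1 library left out, Ddit4 was called in 8 of 8 fits and Eif4ebp1 in 3, those that omitted AL replicate 4 or either of CR replicates 1 and 4. Mtor itself, the kinase, had a log2 fold change of -0.16 (SE 0.22, edgeR adjusted p 0.794), and Deptor, an inhibitor within its complex, one of -0.15 (SE 0.16, edgeR adjusted p 0.7). Rictor, of the second mTOR complex, and Tsc1, a brake on mTORC1, had log2 fold changes of 0.43 and 0.48 (SE 0.20 and 0.23, edgeR adjusted p 0.303 and 0.325).

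Among 34 tested FoxO target genes, edgeR called 3 higher and 2 lower, against 1.2% and 0.785% of all genes tested. At an unadjusted p under 0.05 it counted 9 higher and 5 lower, against 8.62% and 8.1%. Pink1, a kinase of mitochondrial quality control, rose from 18.2 to 24.4 CPM in AL to 37.7 to 62.0 CPM in CR (log2 fold change 1.23, SE 0.19, edgeR adjusted p 0.00931). Pnpla2, the first lipase of fat breakdown, rose from 16.9 to 25.4 CPM to 25.4 to 67.2 CPM (1.43, SE 0.28, edgeR adjusted p 0.0277), and Tsc22d3, a glucocorticoid-induced regulator, from 12.8 to 18.1 CPM to 20.7 to 38.4 CPM (0.95, SE 0.22, edgeR adjusted p 0.048). The CR and AL libraries overlapped for Pnpla2, at CR replicate 4 and AL replicate 3, and not for Pink1 and Tsc22d3. With 1 library left out, Pink1 was called in 8 of 8 fits, Pnpla2 in 2 (without AL replicate 3 and without CR replicate 4) and Tsc22d3 in 1 (without CR replicate 4), and Tsc22d3 also lost its call with upper-quartile factors and with library totals.

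Nfil3, a repressor that is also a clock gene, fell from 6.74 to 16.4 CPM in AL to 0.989 to 2.66 CPM in CR (log2 fold change -2.96, SE 0.37, edgeR adjusted p 0.00389). Ccnd1, the cyclin D1 gene that FoxO factors repress, fell from 36.6 to 57.8 CPM to 14.5 to 21 CPM (-1.49, SE 0.19, edgeR adjusted p 0.00408). Neither gene had overlapping groups, and both were called in 8 of 8 fits with 1 library left out. Clock genes differed too, with 7 of 11 of the Per and Dbp phase called higher, against 1.2% of all genes tested. Of the Bmal1 phase, 3 of 4 tested, Nfil3 itself included, were called lower, against 0.785%. The remaining tested gene of that phase was higher in CR (log2 fold change 0.89, edgeR unadjusted p under 0.05). Their part in these calls was not tested, and the hour of tissue collection is not given in the sources used here.

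Cpt1a, the entry enzyme of mitochondrial fatty acid oxidation, and Ccnd2, the cyclin D2 gene, came close to the threshold by edgeR without overlap of the groups. Cpt1a was at 14.3 to 21.3 CPM in AL and 22.6 to 53.0 CPM in CR (log2 fold change 1.08, SE 0.26, edgeR adjusted p 0.054), and DESeq2 and limma voom called it. The paper, too, names Cpt1a among its upregulated genes. Ccnd2 was at 15.5 to 32.3 CPM in AL and 8.38 to 15.4 CPM in CR (-1.01, SE 0.28, edgeR adjusted p 0.0844), and DESeq2 called it. Both were named after their values were seen. Several familiar FoxO targets were further from the threshold. The cell-cycle inhibitors Cdkn1a and Cdkn1b had log2 fold changes of -0.65 and -0.20 (edgeR adjusted p 0.309 and 0.714), the antioxidant enzymes Sod2 and Cat 0.50 and -0.08 (edgeR adjusted p 0.306 and 0.95), and the autophagy gene Gabarapl1 0.55 (edgeR adjusted p 0.295, called without CR replicate 4). The atrophy ligase gene Fbxo32 was at 0.16, the apoptosis gene Bcl2l11 at 0.14 and the transcription repressor gene Bcl6 at -0.68 (edgeR adjusted p 0.786, 0.846 and 0.131). Cited2, Gadd45a, Ccng2, Klf15 and Txnip lay between -0.71 and 0.98, with edgeR adjusted p from 0.286 to 0.934. Igfbp1, a fasting-induced liver gene, had 0 counts in all 8 libraries. Pck1, of gluconeogenesis, had 0, 2, 0 and 6 counts in AL and 1, 2, 18 and 36 counts in CR. Pdk4, the fasting-induced brake on pyruvate oxidation, had 5, 2, 0 and 1 counts in AL and 11, 70, 73 and 0 counts in CR, so CR replicates 1 to 3 were above AL and CR replicate 4 had none. Both Pck1 and Pdk4 were left out by the filter on low counts, and edgeR called Pdk4 with no filter and without CR replicate 4.

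The gene with the smallest p in each upstream list was not called by edgeR, although DESeq2 called Igf1r and Pik3cd. Pik3cd, the PI3-kinase catalytic subunit of leukocytes, was at 2.23 to 6.26 CPM in AL and 1.12 to 2.05 CPM in CR without overlap (log2 fold change -1.33, SE 0.41, edgeR adjusted p 0.115). Macrophage markers summed to 196 to 667 CPM in AL and 118 to 215 CPM in CR, and T cell markers to 6.31 to 29.1 and 3.53 to 6.82 CPM. Their part in the Pik3cd values was not tested. Trib3, a pseudokinase that binds AKT, had a log2 fold change of 1.47 (SE 0.54, edgeR adjusted p 0.187), and Ywhah, a 14-3-3 protein gene of the kind that holds FoxO in the cytoplasm, one of -0.78 (SE 0.27, edgeR adjusted p 0.166). The core kinases had log2 fold changes closer to 0, with Pik3ca at 0.22, Pdpk1 at -0.03, Akt1 at 0.36, Akt2 at -0.08 and Gsk3b at 0.06 (edgeR adjusted p from 0.631 to 0.96). The adaptor gene Grb10 was at 0.21 (edgeR adjusted p 0.886), and Grb14 was too rare to test.

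**Figure D4:**
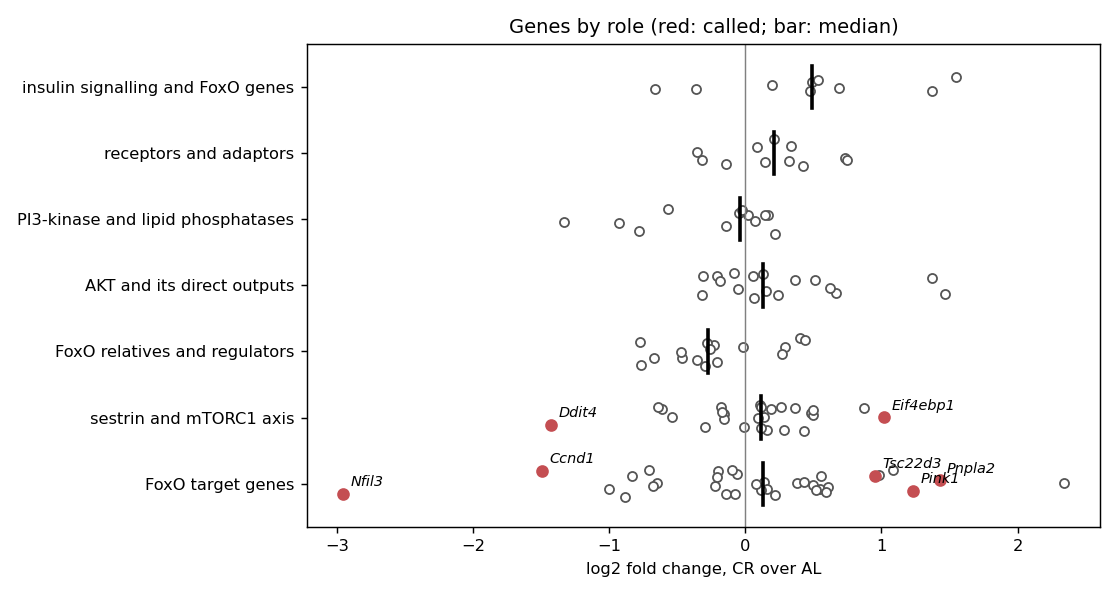
Fitted log2 fold change of CR over AL for each tested gene, in rows for the 9 insulin signalling and FoxO genes and for the 6 lists of other pathway genes, with red points for called genes, open points for the rest, a vertical bar at each row's median and small vertical offsets within a row for legibility only. The 7 genes called by edgeR lie in the sestrin and mTORC1 axis and among FoxO target genes, and the median is 0.49 for the 9 genes and 0.08 for the lists together.

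CR libraries differed in how many of the 9 tested genes lay outside the AL range. In CR replicates 1 to 4, 6, 7, 7 and 3 genes were above every AL library, and 2, 0, 2 and 4 were below every one. Such counts were not made for all genes tested, so they do not mark a trait of these 9 genes. Chi-square of the tested genes' counts, per degree of freedom, was 637 to 779 between CR replicate 4 and each other CR library. Among CR replicates 1 to 3 it was 54.2 to 89.0. The most counted genes weigh most in this value, so it does not describe the tested genes as a whole. Bpifa2, a parotid gene, had 2374620, 2789992 and 2442063 counts in CR replicates 1 to 3 and 246695 in CR replicate 4. The paper describes 1 CR sample as a possible outlier without naming it. CR replicate 4 was above AL only for Insr, Pik3r1 and Sesn1, and below it for Irs1, Foxo1, Foxo4 and Sesn3. Some of these margins were narrow. Foxo1 was at 14.8 CPM against 14.9 CPM in AL replicate 3, and Irs1 had 9 counts against 12 in AL replicate 4. The same library had the fewest parotid transcripts of CR, with a sum of 59154 CPM against 265073 to 350647 CPM in the other CR libraries, and the lowest white adipose sum. Skeletal muscle markers did not follow this order, with sums of 5.09, 87.8, 11.3 and 70.6 CPM in CR replicates 1 to 4 and 2.14 to 20.9 CPM in AL. With the mean log2 level of the parotid genes as a covariate, the log2 fold change of Pik3ip1 was 0.39 (SE 0.84), that of Pik3r1 0.28 (SE 0.38), that of Insr 0.66 (SE 0.36), that of Sesn1 1.36 (SE 0.84) and that of Sesn3 -0.66 (SE 0.55). That score was 4.29 to 8.57 in AL and 10.3 to 13.7 in CR, without overlap, so the effects of diet and of the score cannot be told apart in these libraries, and the SE of each of these 5 genes was larger than without the covariate.

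**Figure D5:**
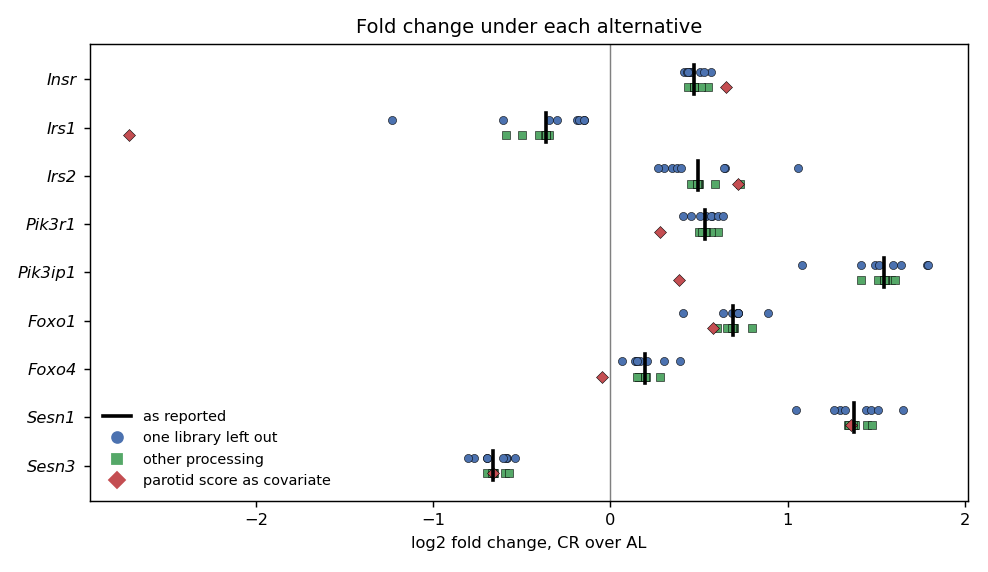
Fitted log2 fold change of CR over AL for the 9 tested genes under each alternative, with black bars for the reported value, blue circles for fits without 1 library, green squares for other normalisations, filters and tools, and red diamonds for the fit with the parotid score as covariate. The diamonds of Irs1 (-2.71) and Pik3ip1 (0.39) lie far from the reported values, Foxo4 crosses 0 there (-0.05), and the other genes stay on their side of 0 under all alternatives drawn.

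Across the 8 libraries, the genes whose log2 levels tracked Pik3ip1 most closely were Foxp1 (Pearson r 0.979), Crebrf (0.970), Gprc5b (0.959), Ccdc3 (0.957) and Fam129b (0.955). These values describe 8 libraries that also share diet and tissue makeup. Gprc5b, a membrane receptor gene, was called higher in CR, at 1.47 to 3.64 CPM in AL and 4.49 to 25.8 CPM in CR (log2 fold change 2.53, SE 0.47, edgeR adjusted p 0.0215). Like Pik3ip1, these 5 genes had their highest level in CR replicate 2 and their lowest CR level in CR replicate 4. This follows largely from choosing them by likeness to Pik3ip1 in the same libraries.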

How the data were processed

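RNA near transcript 3′ ends was sequenced from LGs of 4 AL and 4 CR mice. On the ROSALIND platform the authors used cutadapt for trimming, STAR for alignment to mm10 and HTSeq for the raw counts per gene that they deposited. Versions, gene annotation and the strand setting are not given in the sources used here. The log2 values deposited by the authors are log2 of count over the DESeq2 RLE size factor plus 1, recomputed here with a largest difference of 0.000124, and were not used further.

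After 5 repeated symbols were dropped, 24552 genes remained, and 11211 passed edgeR's filterByExpr. CR was compared with AL, grouped by label, with edgeR 4.0.16 in R 4.3.3, RLE factors from the tested genes, quasi-likelihood F tests and p-values adjusted by Benjamini-Hochberg over all genes tested (biological coefficient of variation 34.7%). SE is the log2 fold change over the square root of F. Foxo3 (pseudocount 1 CPM) and 5 ratios of counts (pseudocount 0.5) were compared by exact permutation. Genes named are the 10 members, a set list of pathway genes, called pathway genes, the smallest p in each list and the 5 genes most like Pik3ip1 in Pearson r of log2(CPM + 0.5). A gene of the set list is not reported here. Members and lists were chosen with earlier results of these data known. Positions are from GENCODE vM21 on GRCm38, and promoters from RefSeq. On simulated data with 193 changed genes tested among 11001, the comparison called 89 of 110 changed by a log2 fold of 2, 15 of 83 changed by 1 and 9 unchanged genes. Alternatives used TMM, upper-quartile or no factors, DESeq2 1.42.0, limma 3.58.1 voom, robust dispersion, 2 other filters, no fold threshold, a replicate block, leaving out each library and a parotid covariate.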

Additional observations from a re-analysis of the deposited data

Results flagged for a closer look

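In 30 groups of 4 libraries (10 genes and 5 ratios, in AL and in CR), Dixon's criterion picked 2 libraries that stood far from the other 3, where chance gives about 1 in 20 groups. Irs2 in AL replicate 3 was at 19.9 CPM, while the other AL libraries were at 5.98 to 7.47 CPM. Irs1 in CR replicate 2 was at 2.25 CPM, while the other CR libraries were at 0.495 to 0.557 CPM.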

How the results depend on the processing

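The count of called genes among the 10 depended on the tool, the filter and 1 library: DESeq2 called 2, edgeR with no filter on low counts 1, edgeR with a replicate block 1 (Pik3ip1, adjusted p 0.0397), the leave-one-out fits 0 to 3, and the other alternatives 0. Over all genes the 222 calls became 702 with DESeq2, 397 with limma voom, 436 with no filter, 700 with the replicate block, 4 with the parotid covariate and 61 (without AL replicate 2) to 700 (without CR replicate 4) with 1 library left out. The 7 called pathway genes became 11 with DESeq2, 11 with no filter, 13 with the replicate block (among them Igf1r, Trib1, Xpo1 and Ywhaq), 0 with the parotid covariate and 4 to 14 with 1 library left out (14 without CR replicate 4). The replicate numbers were not used as pairs, since the labels name nothing that a number shares and not every same-numbered pair correlated above 0.1 (0.182, 0.0995, 0.278 and 0.507, of deviations from the group means). AL replicate 3 and CR replicates 1 and 2 correlated best with another number. Library totals without factors split the calls into 123 higher and 51 lower, against 134 and 88. The fold change of Foxo4 reversed to -0.046 with the parotid covariate. Without 1 library the Foxo3/Foxo1 difference ranged from -1.05 to 0.44 and the Foxo3 difference from -0.14 to 0.14, reversing in 4 and 3 fits; the cause was not tested, but 40 counts of Foxo3 limit both. With the replicate block the smallest sign-flip p for a ratio is 0.125, so none could pass. Depth limits Foxo3, Irs1, Sesn1 and Pik3ip1 most, as they have the fewest counts.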

Other observations

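Some genes of the pathway lists differed strongly between libraries of the same diet, and they were picked out after their values were seen. Txnip, a thioredoxin-binding protein gene that FoxO and glucose-sensing factors regulate, was at 14.1, 37.5, 8.08 and 144 CPM in AL and at 6.85, 208, 50.5 and 139 CPM in CR, in the order of replicates 1 to 4. Eif4ebp2, a translation repressor gene, was at 59.9, 110, 17.4 and 238 CPM in AL and at 17.0, 123, 94.1 and 233 CPM in CR. For both genes AL replicate 4 was the highest AL library and AL replicate 3 the lowest, and CR replicate 1 was the lowest CR library.

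Of the 8 genes whose promoter window holds an E-box and an insulin response core that begin at most 10 bases apart, 5 were tested, Irs1, Irs2, Klf11, Pcbp1 and Pyroxd1, with log2 fold changes from -0.37 to 0.49 and edgeR adjusted p from 0.521 to 0.845. None was called. Irs4 was at 0 counts in all 8 libraries.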
